A study of Mus musculus with 4 samples.

Results

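The 51 genes described here encode the proteins that mark replication origins, load and start the replicative helicase, copy the DNA and rebuild chromatin behind the fork. They were chosen as a list of symbols with earlier results of these data known. The symbols were matched exactly to the gene column of the deposited expression table, which has 23309 genes. All 51 were found, and each averaged at least 1 FPKM over the genotypes (fragments scaled by transcript length and by the mapped fragments of a library); 10766 genes in all reached that level and are called expressed below. The 51 genes were sorted by role into licensing, helicase and firing, polymerases, clamp and lagging strand, single-strand binding and fork protection, and chromatin assembly with histone mRNA.

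The RNA came from mouse embryonic stem cells of strain 129/Ola, grown on gelatin-coated plates with fetal bovine serum and LIF, at passages 10 to 20. One genotype was wild type. The other was mutant for Chd2, an ATP-dependent chromatin remodeler, on both alleles, written Chd2 mut/mut in the genotype label and Chd2KO in the sample titles. Each genotype had 2 libraries of total RNA, called lot 1 and lot 2. The labels do not tell whether a lot is its own culture, nor whether the mutant was 1 clone or several. For each gene the authors deposited 1 FPKM value per genotype, and the levels below are the authors' values over both lots, with no standard deviation, no n of their own and no known depth.

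Before S phase the origin recognition complex, with Cdc6 and Cdt1, places rings of the MCM helicase on DNA, and geminin then blocks Cdt1 so that no origin is licensed again. At S phase the kinase of Cdc7 and Dbf4, together with Topbp1, Mcm10, Cdc45 and the GINS complex, turns the loaded rings into active helicases, and polymerases alpha, epsilon and delta follow with the sliding clamp PCNA. Embryonic stem cells cycle quickly with a short G1 phase, and many of these genes are classical targets of E2F transcription factors. In a bulk sample, fewer cells in S phase and less of these RNAs per cell cannot be told apart.

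Chd2 was at 10.2 FPKM in wild-type cells and 5.69 FPKM in mutant cells, 55.9% of the wild-type level, and the authors' deposited table calls it, with q at 0.0103. The label of the tissue was checked against markers. All 9 markers of undifferentiated cells were expressed in both genotypes, from Klf4 at 16.7 and 18.1 FPKM in wild type and mutant to Dppa5a at 3844 and 4380 FPKM. Of 8 fibroblast markers, 7 were under 1 FPKM in both genotypes, Col3a1, Lum and Postn were listed at 0 in both, and Dcn was listed at 0 in wild type. The exception was Thy1, at 14.2 and 11.5 FPKM. Of 8 germ layer markers, 6 were under 1 FPKM in both genotypes. With wild type listed first, the exceptions were Pax6 (1.68 and 2.42 FPKM) and Nes (4.12 and 3.58 FPKM).

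Most replication genes had slightly lower RNA values in the mutant, and none of the differences was called. Of the 51 genes, 41 (80.4%) were lower and 10 were higher in the mutant, against 50.4% lower among all expressed genes. As the 51 genes were chosen with earlier results of these data known, this contrast is a description only. The 51 genes were more abundant than most, and abundant genes of any kind were more often lower. The share was 57.9% of genes averaging at least 10 FPKM, 63.7% between 30 and 100 FPKM and 75.8% between 100 and 300 FPKM. Counts by role below stand beside these shares. Measured as log2(FPKM + 1), mutant minus wild type, the median difference of the 51 genes was -0.12, against -0.0012 over all expressed genes. After quantile normalization, which forces both columns to 1 distribution, it was -0.06, against 0.007 over all genes. With that scaling 38 of the 51 genes were lower, against 47.7% of all expressed genes. The differences ran from -0.32 for Gins4 to 0.25 for Topbp1, and the middle of the set, between its quartiles, from -0.15 to -0.02. The summed level of the 51 genes was 4647 FPKM in wild-type cells and 4328 FPKM in mutant cells, 93.1% of wild type.

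No gene of the 51 (0 of 51) was called in the authors' deposited table, where 0.718% of the 11276 genes whose q lies under 1 were. The lowest q-value among them in the authors' deposited table was 0.534, for Gins4, and 10 of the 51 were under 0.9. The table gives no p-values and no values per lot, so no count at an unadjusted p and no count by another tool can be given. A q-value this high does not show that the levels were equal.

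The differences were small as well as uncalled. Only 1 gene of 51, Gins4, had a mutant level of at most 80% of wild type, against 5.9% of all expressed genes and 3.36% of genes averaging at least 10 FPKM. None (0 of 51) had a wild-type level of at most 80% of the mutant, against 6.94% and 2.33%. Past 1.1-fold, a limit chosen after the values were seen, 17 (33.3%) were lower, against 21.4% of expressed genes and 21.3% of those averaging at least 10 FPKM, and 4 (7.84%) were higher, against 22% and 12.7%. The other 30 lay within 1.1-fold of wild type.

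**Figure D1:**
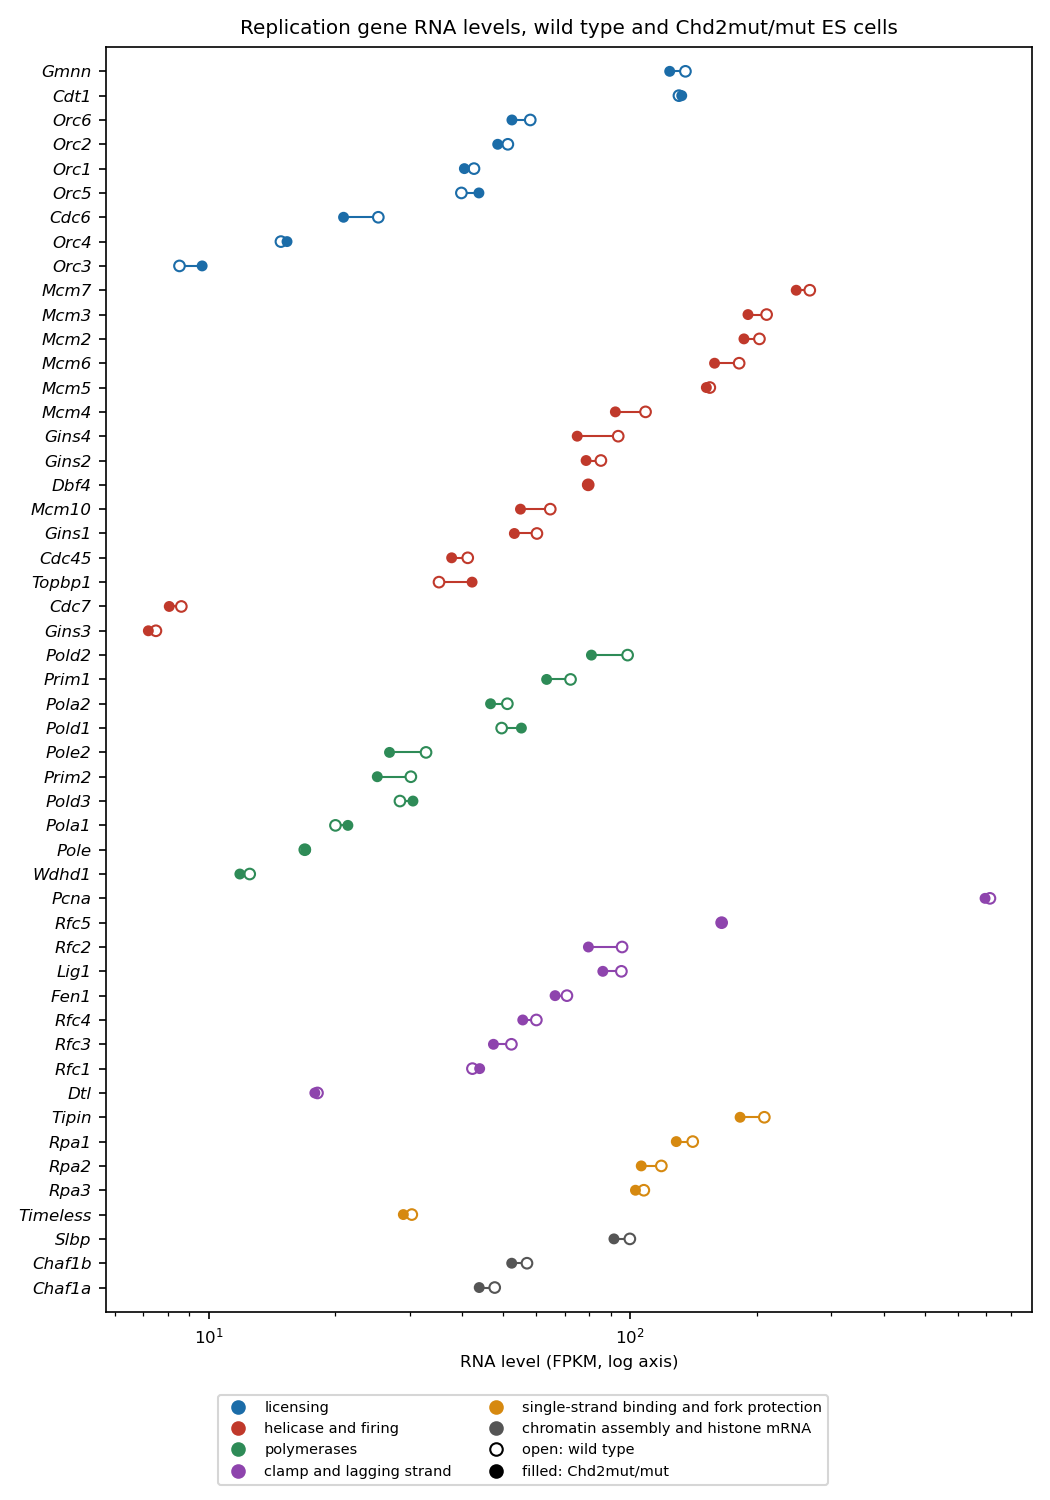
RNA level of each of the 51 genes in FPKM on a log axis, ordered by role and then by wild-type level, with open points for wild type and filled points for Chd2mut/mut; each point is 1 deposited value over 2 libraries, so there are no error bars. The filled point is left of the open point for 41 genes, and the gap is small beside the range of levels from 7.50 FPKM for Gins3 to 715 FPKM for Pcna in wild type.

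Among licensing factors the values were mixed, with 5 of 9 lower and a median difference of -0.07. The subunits of the origin recognition complex, the 6-protein ATPase machine that marks origins, were split evenly. Orc1, the subunit that is made and destroyed with the cell cycle, was at 42.6 FPKM in wild-type cells and 40.5 FPKM in mutant cells. Orc2 was at 51.3 and 48.5 FPKM. Orc6, the smallest subunit, was at 58.0 and 52.5 FPKM. These 3 were the most abundant subunits in wild type, and all were lower in the mutant.

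The remaining subunits were less abundant in wild type and lay above it in the mutant. Orc3 was at 8.53 FPKM in wild-type cells and 9.66 FPKM in mutant cells, Orc4 at 14.9 and 15.4 FPKM, and Orc5 at 39.8 and 43.8 FPKM. As a result the span of the complex, from its lowest to its highest subunit, was 6.80-fold in wild type and 5.43-fold in the mutant. Orc5 lay below Orc1 in wild type and above it in the mutant.

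Cdc6, the ATPase that joins the origin recognition complex to load the helicase, had the largest difference of the licensing group, -0.26. Its level was 25.3 FPKM in wild-type cells and 20.9 FPKM in mutant cells, 82.7% of wild type, with a q-value of 0.697 in the authors' deposited table. Cdt1, its partner in loading, was at 131 and 133 FPKM. Gmnn, which encodes geminin, the inhibitor of Cdt1, was at 135 and 124 FPKM. Cdt1 RNA stood to Gmnn RNA as 0.965 to 1 in wild type and as 1.07 to 1 in the mutant, so their order was opposite in the genotypes by a margin that no replicate error can be set against.

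Helicase and firing genes were lower in the mutant for 14 of 15, with a median difference of -0.12, and for 12 of 15 after quantile normalization. With a trend on length and GC content over all genes removed, 13 of 15 were lower. As deposited, 57.9% of all genes averaging at least 10 FPKM were lower. The 6 subunits of the MCM ring, the motor of the replicative helicase, were among the most abundant of the 51 genes. Mcm7 was at 267 FPKM in wild-type cells and 248 FPKM in mutant cells, Mcm3 at 211 and 191 FPKM, and Mcm2 at 203 and 186 FPKM. Mcm6 was at 182 and 159 FPKM, Mcm5 at 155 and 152 FPKM, and Mcm4 at 109 and 92.3 FPKM. All 6 were lower in the mutant as deposited, and 5 of 6 after quantile normalization, where Mcm5 lay at 0.04. All 6 averaged between 100 and 300 FPKM, a range in which 75.8% of all 662 genes were lower, with a median of -0.07.

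The order of the MCM subunits by level was the same in both genotypes, from Mcm7 down to Mcm4. Their span was 2.45-fold in wild type and 2.69-fold in the mutant, and their summed level in the mutant was 91.3% of wild type. Mcm4, the least abundant subunit, had the largest difference of the ring, -0.24, and Mcm5 the smallest, -0.03. In the authors' deposited table the q-value of Mcm4 was 0.785.

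The factors that activate the ring were lower in the mutant as deposited, with 1 exception. Gins4, a subunit of the GINS complex that binds the ring with Cdc45, had the largest difference of all 51 genes. It was at 93.8 FPKM in wild-type cells and 74.96 FPKM in mutant cells, 79.9% of wild type. Gins1 was at 60.1 and 53.2 FPKM, Gins2 at 85.3 and 78.7 FPKM, and Gins3 at 7.50 and 7.20 FPKM. All 4 GINS genes were lower under each scaling, although the proteins form a complex with 1 copy of each and Gins3 RNA was 12.5-fold below Gins4 RNA in wild type.

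Mcm10, a fork protein needed to activate the helicase, was at 64.7 FPKM in wild-type cells and 55.0 FPKM in mutant cells. Cdc45 itself was at 41.2 and 37.7 FPKM. The kinase that triggers firing had unequal subunits. Its catalytic subunit Cdc7 was at 8.62 and 8.07 FPKM and its activator Dbf4 at 79.6 and 79.5 FPKM, so Dbf4 RNA was 9.24-fold above Cdc7 RNA in wild type and 9.85-fold above it in the mutant.

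Topbp1 lay apart from the other firing genes. It encodes a scaffold that recruits helicase factors at origins and activates the checkpoint kinase ATR. It was at 35.2 FPKM in wild-type cells and 42.2 FPKM in mutant cells, 1.198-fold higher, which was the largest difference upward among the 51 genes. Its q-value in the authors' deposited table was 0.709.

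The RefSeq table of promoters for build GRCm38.p6 held 42 of the 51 genes, as windows from 250 bases before to 50 bases after an annotated start. The windows were searched on both strands for the 8-letter E2F strings TTTCCCGC, TTTCGCGC, TTTGCCGC and TTTGGCGC, which can overlap each other. Of the 42 genes, 17 (40.5%) held at least 1 match, against 2.26% of all 32851 windows and 5.197% of the 7985 expressed genes that have a window. The strings were chosen after the values were seen, and a match is a description of these letters only.

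The windows of the 4 MCM subunits with a match, which lay on the same side of wild type as deposited, and of Cdc6 and Topbp1, the licensing and firing genes with the largest differences downward and upward among those with a match, are shown 5′ to 3′ in the direction of transcription. Capitals mark the E2F strings or their reverse complements. The Mcm3 window is chr1:20820263-20820562 on the minus strand, that of Mcm5 is chr8:75109259-75109558 on the plus strand, and that of Mcm6 is chr1:128359656-128359955 on the minus strand. The Mcm7 window is chr5:138171834-138172133 on the minus strand and is the one of 2 listed for that gene that holds a match. The Cdc6 window is chr11:98907901-98908200 and the Topbp1 window chr9:103305077-103305376, both on the plus strand.
Mcm3: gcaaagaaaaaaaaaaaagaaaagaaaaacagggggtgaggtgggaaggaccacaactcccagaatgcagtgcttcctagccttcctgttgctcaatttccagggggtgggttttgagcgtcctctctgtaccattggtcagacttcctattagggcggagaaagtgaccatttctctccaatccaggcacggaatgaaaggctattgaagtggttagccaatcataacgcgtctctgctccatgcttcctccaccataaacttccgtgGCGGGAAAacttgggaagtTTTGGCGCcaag
Mcm5: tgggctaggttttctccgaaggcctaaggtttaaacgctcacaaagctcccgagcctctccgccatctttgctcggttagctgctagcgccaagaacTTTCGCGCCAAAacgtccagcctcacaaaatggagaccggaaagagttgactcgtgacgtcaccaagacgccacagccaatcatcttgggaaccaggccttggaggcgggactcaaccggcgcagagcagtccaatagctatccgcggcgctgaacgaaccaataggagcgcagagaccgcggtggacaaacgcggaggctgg
Mcm6: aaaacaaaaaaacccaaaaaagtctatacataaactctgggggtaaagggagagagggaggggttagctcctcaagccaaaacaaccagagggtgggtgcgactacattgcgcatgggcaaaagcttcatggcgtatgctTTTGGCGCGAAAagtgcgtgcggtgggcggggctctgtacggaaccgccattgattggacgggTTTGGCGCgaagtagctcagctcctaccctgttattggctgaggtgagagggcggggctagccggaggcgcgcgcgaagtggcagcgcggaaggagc
Mcm7: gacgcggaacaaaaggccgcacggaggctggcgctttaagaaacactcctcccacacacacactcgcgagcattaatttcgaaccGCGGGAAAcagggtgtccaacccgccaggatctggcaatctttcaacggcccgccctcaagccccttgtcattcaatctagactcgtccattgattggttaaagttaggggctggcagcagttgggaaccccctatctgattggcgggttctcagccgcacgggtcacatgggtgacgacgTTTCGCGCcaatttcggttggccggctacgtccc
Cdc6: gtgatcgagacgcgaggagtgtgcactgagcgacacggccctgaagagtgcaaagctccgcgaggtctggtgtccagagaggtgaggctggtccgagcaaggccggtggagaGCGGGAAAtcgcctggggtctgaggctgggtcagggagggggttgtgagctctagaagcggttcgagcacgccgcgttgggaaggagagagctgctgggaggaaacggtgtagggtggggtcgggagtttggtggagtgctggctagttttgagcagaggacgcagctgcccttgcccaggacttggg
Topbp1: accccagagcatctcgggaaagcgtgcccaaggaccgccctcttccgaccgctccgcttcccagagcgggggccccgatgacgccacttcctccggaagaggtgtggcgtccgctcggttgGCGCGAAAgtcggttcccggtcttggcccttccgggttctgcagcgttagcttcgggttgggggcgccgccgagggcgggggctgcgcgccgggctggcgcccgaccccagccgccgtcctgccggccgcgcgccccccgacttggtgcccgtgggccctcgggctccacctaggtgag

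Mcm6 held 3 matches, of which 2 overlap. In Mcm5 a pair of matches on opposite strands overlap to form 1 run of capitals. Both matches of Mcm3 start after the annotated start, at bases 270 and 289 of the window, while those of Mcm7 lie on either side of it, at bases 86 and 267. Cdc6 and Topbp1 held 1 match each, at bases 113 and 122. Both genes therefore have an E2F string upstream of the start, and their RNA lay on opposite sides of wild type.

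Among the 42 genes with a window, those with an E2F string were not more often lower than those without. Of the 17 genes with a match, 11 were lower in the mutant and their median difference was -0.05. Of the 25 genes with a window and no match, 22 were lower and the median was -0.11. Across all expressed genes with a window, the medians with and without a match were -0.0051 and -0.0023. The 9 genes without a window are in neither group: Prim2, Gins2, Rfc2, Pole, Tipin, Gmnn, Gins4, Mcm4 and Gins1. They include Gins4 at -0.32, Rfc2 and Prim2 at -0.26 and Mcm4 at -0.24, and only Pole lay above wild type, at 0.006. A part of E2F factors in the differences was not tested.

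The CHR string TTTGAA, an element of late cell cycle genes, was in the windows of 7 of the 42 genes (16.7%), against 17.9% of all windows and 13.4% of expressed genes with a window. All 7 of these genes were lower in the mutant as deposited, against 26 of the 35 without it. The median differences with and without it were close, at -0.09 and -0.08. Across all expressed genes with a window they were -0.0099 and -0.0016. Dbf4, among the 7, lay at -0.002 as deposited and at 0.05 after quantile normalization. The string CCAAT, bound by NF-Y, was in the windows of 24 of the 42 (57.1%), against 37.4% of all windows and 43.8% of expressed genes with a window. Of these 24 genes 21 were lower, against 12 of the 18 without it, with medians of -0.12 and -0.07. Across all expressed genes with a window the medians were -0.0092 and 0.0016.

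**Figure D2:**
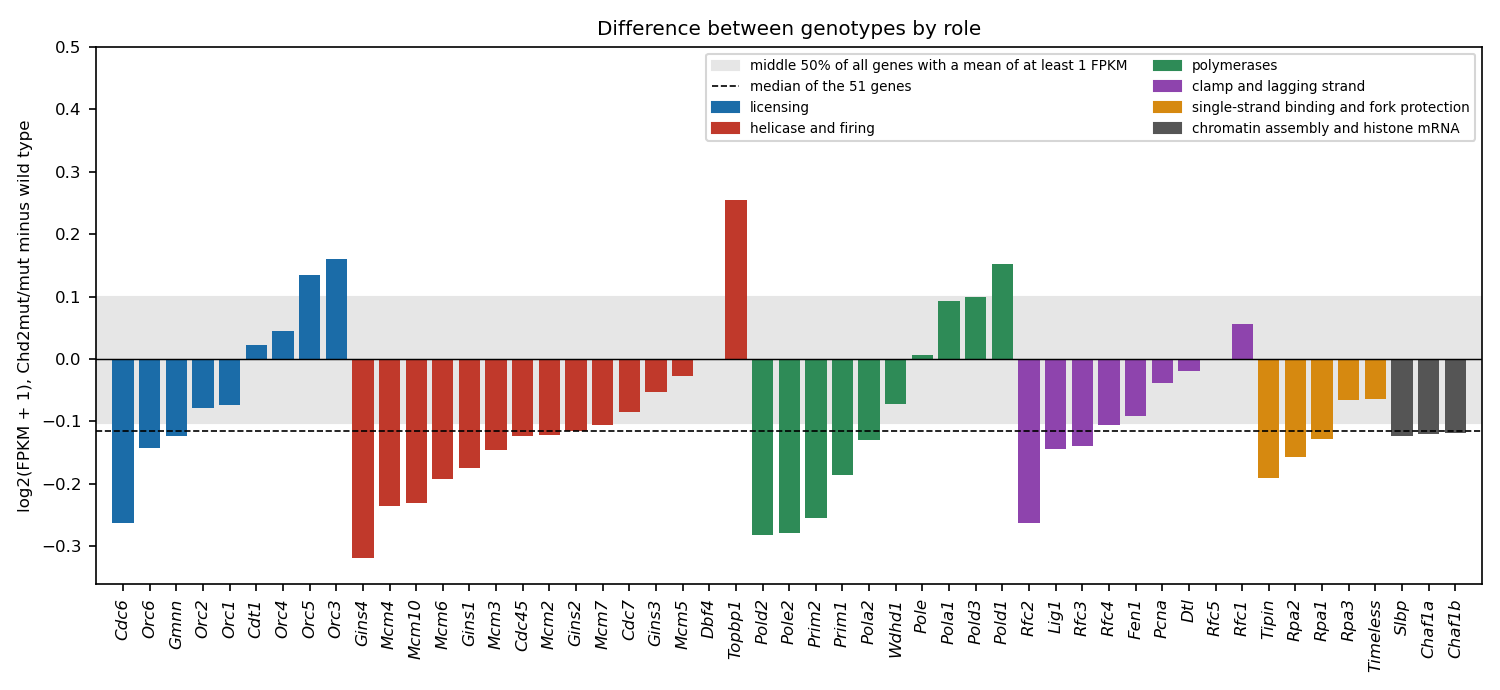
Difference of log2(FPKM + 1), Chd2mut/mut minus wild type, for each of the 51 genes as 1 bar, grouped and coloured by role, with the middle 50% of all expressed genes in grey and the median of the 51 genes as a dashed line. Bars point down for 41 genes as deposited (38 after quantile normalization), with Gins4 the lowest at -0.32 and Topbp1 the highest at 0.25.

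Subunits of the replicative polymerases lay on both sides of wild type. The polymerase group had 6 of 10 genes lower and a median difference of -0.10. In the polymerase alpha and primase complex, which starts each new strand with an RNA and DNA primer, the catalytic subunit Pola1 was at 20.0 FPKM in wild-type cells and 21.4 FPKM in mutant cells. Its partner Pola2 was at 51.2 and 46.7 FPKM. The primase subunits were Prim1, at 72.3 and 63.4 FPKM, and Prim2, at 30.2 and 25.1 FPKM, or 83.2% of wild type.

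Polymerase delta, which copies the lagging strand, had 1 of its 3 subunits in this set lower. The catalytic subunit Pold1 was at 49.6 FPKM in wild-type cells and 55.3 FPKM in mutant cells, 1.11-fold higher. The second subunit Pold2 was at 98.7 and 81.0 FPKM, 1.22-fold lower, with a q-value of 0.630 in the authors' deposited table. Pold3, a further subunit that binds PCNA, was at 28.5 and 30.6 FPKM. Pold2 RNA was 1.99-fold above Pold1 RNA in wild type and 1.47-fold above it in the mutant.

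For polymerase epsilon, which copies the leading strand, the catalytic Pole was at 16.9 FPKM in wild-type cells and 17.0 FPKM in mutant cells. Pole2, its second subunit and a part of the active helicase, was at 32.8 and 26.9 FPKM, 1.22-fold lower. Pole2 RNA was 1.94-fold above Pole RNA in wild type and 1.58-fold above it in the mutant. As deposited, the second subunit was below wild type in these 3 polymerases, while Pola1 and Pold1 lay above it and Pole differed by only 0.006 on the log2 scale. With a trend on length and GC content removed Pole was lower too, and this grouping of subunits was made after the values were seen. Wdhd1, which ties polymerase alpha to the helicase, was at 12.5 and 11.9 FPKM.

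Clamp and lagging strand genes were lower for 8 of 9 as deposited, with a median difference of -0.09. They were lower for 7 of 9 with the overall median set to 0, with quantile normalization, or with a trend on length and GC content removed. With level added to that trend, 6 of 9 were lower. Pcna, the ring that holds polymerases on DNA, was the most abundant of the 51 genes. It was at 715 FPKM in wild-type cells and 696 FPKM in mutant cells, 97.4% of wild type. Annotated genes named Pcna-ps1 and Pcna-ps2, and similar ones for Topbp1, are near-copies, and the sources used here do not give the treatment of reads shared with them.

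The clamp loader, replication factor C, opens the PCNA ring with 1 large and 4 small subunits. The large subunit Rfc1 was at 42.3 FPKM in wild-type cells and 44.0 FPKM in mutant cells. Rfc2 was at 95.8 and 79.7 FPKM, 83.2% of wild type and the largest difference of the loader. Rfc3 was at 52.3 and 47.4 FPKM, Rfc4 at 60.0 and 55.7 FPKM, and Rfc5 at 165 FPKM in both genotypes. Rfc5 was lower by a ratio of only 1.0008, and its direction turned under either rescaling, so the loader had Rfc2, Rfc3 and Rfc4 lower under each scaling.

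The enzymes that finish Okazaki fragments were both lower in the mutant under each scaling. Fen1, the flap endonuclease, was at 70.9 and 66.4 FPKM, and Lig1, the ligase that seals nicks, at 95.4 and 86.2 FPKM. Dtl, the receptor of the ubiquitin ligase that destroys Cdt1 at PCNA during S phase, was at 18.1 and 17.9 FPKM.

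Genes of single-strand binding and fork protection were lower for 5 of 5 under each scaling, with a median difference of -0.13 as deposited and -0.06 after quantile normalization, where Rpa3 lay at -0.004. With a trend on length and GC content removed, 4 of 5 were lower, and 2 of the 3 RPA genes. Replication protein A coats the unwound strand as a trimer, and its genes were at similar levels. Rpa1 was at 141 FPKM in wild-type cells and 129 FPKM in mutant cells, Rpa2 at 119 and 106 FPKM, and Rpa3 at 108 and 103 FPKM. Their span was 1.31-fold in wild type, narrower than that of the other complexes of 3 or more subunits.

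The fork protection pair was uneven. Tipin was at 208 FPKM in wild-type cells and 183 FPKM in mutant cells, and its partner Timeless at 30.4 and 29.0 FPKM. Tipin RNA was 6.86-fold above Timeless RNA in wild type and 6.30-fold above it in the mutant. The difference of Tipin, -0.19, was the largest of this group.

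Chromatin assembly genes lay within a narrow band, with all 3 lower under each scaling and differences from -0.124 to -0.118. Chaf1a and Chaf1b, subunits of the CAF-1 chaperone that deposits histones on new DNA, were at 47.8 and 43.9 FPKM and at 56.97 and 52.4 FPKM in wild type and mutant. The ratio of Chaf1b to Chaf1a RNA was 1.19 in both genotypes. Slbp, which binds the stem-loop of histone mRNAs and supports their translation, was at 99.9 and 91.6 FPKM.

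From 3 to 300 FPKM, the share of all genes that were lower in the mutant was larger in each higher level range. Of all 662 genes with a mean between 100 and 300 FPKM, 75.8% were lower in the mutant and the median difference was -0.07. The replication genes in that range were lower for 12 of 13 (92.3%), with a median of -0.12. Between 30 and 100 FPKM, 63.7% of 1884 genes were lower, with a median of -0.05, against 20 of 24 replication genes (83.3%), with a median of -0.12.

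At lower levels the shift was smaller on both counts. Between 10 and 30 FPKM, 49.1% of 2758 genes and 6 of 10 replication genes were lower, with medians of 0.003 and -0.04. Among all genes averaging at least 10 FPKM, 57.9% were lower and the median was -0.03, against 39 of 48 replication genes (81.3%) and a median of -0.12. Above 300 FPKM the shift of all genes was smaller again, with 62.3% of 353 genes lower and a median of -0.04, and the 1 replication gene there, Pcna, lay at -0.04. The replication genes had a median wild-type level of 60.0 FPKM, against 11.01 FPKM for all expressed genes.

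**Figure D3:**
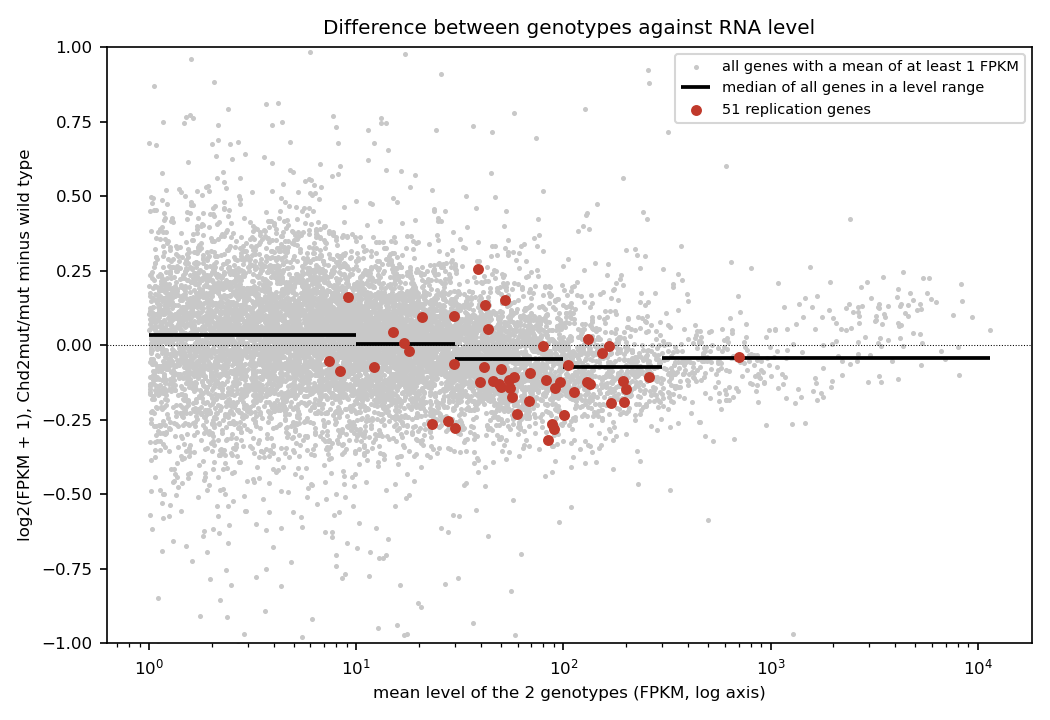
Difference of log2(FPKM + 1), Chd2mut/mut minus wild type, against the mean level of both genotypes in FPKM on a log axis, with all genes of at least 1 FPKM in grey, their median in each level range as black lines and the 51 replication genes in red; 99 genes with a difference over 1 in size are outside the plotted range. The black line falls from 0.03 below 10 FPKM to -0.07 between 100 and 300 FPKM and lies at -0.04 above that, and most red points above 30 FPKM lie below it.

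Transcript length also went along with the difference. Length here is that of the longest transcript annotated on GRCm38, found for all 51 genes, which need not be the form expressed. All 11 replication genes under 2000 nt were lower in the mutant as deposited, with a median of -0.16, and among the 1586 genes of that length averaging at least 10 FPKM 63.9% were lower, with a median of -0.05. Of the 5 replication genes of at least 5000 nt, Pola1, Pole and Topbp1 were higher and Rpa1 and Chaf1a lower, and among the 746 genes of that length and averaging at least 10 FPKM 44.1% were lower.

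Across the 51 genes the difference had a Pearson r of 0.29 with log2 length and a Spearman rho of 0.27, and across 5358 genes averaging at least 10 FPKM these were 0.11 and 0.15. Genes within a library share its depth and RNA quality and are not independent. The median length was 3904 nt for the 10 genes that were higher and 2962 nt for the 41 that were lower. Genes on either side overlapped in length, with Cdt1 at 2696 nt among the higher and Rfc2 and Cdc6 at 4995 and 4802 nt among the lower. The part of length in these differences was not tested gene by gene. With a trend on length and GC content over all genes removed, 39 of 51 were lower, against 50.5% of all expressed genes with a known length. The median of the 51 genes was then -0.10, and both polymerase epsilon genes were lower.

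**Figure D4:**
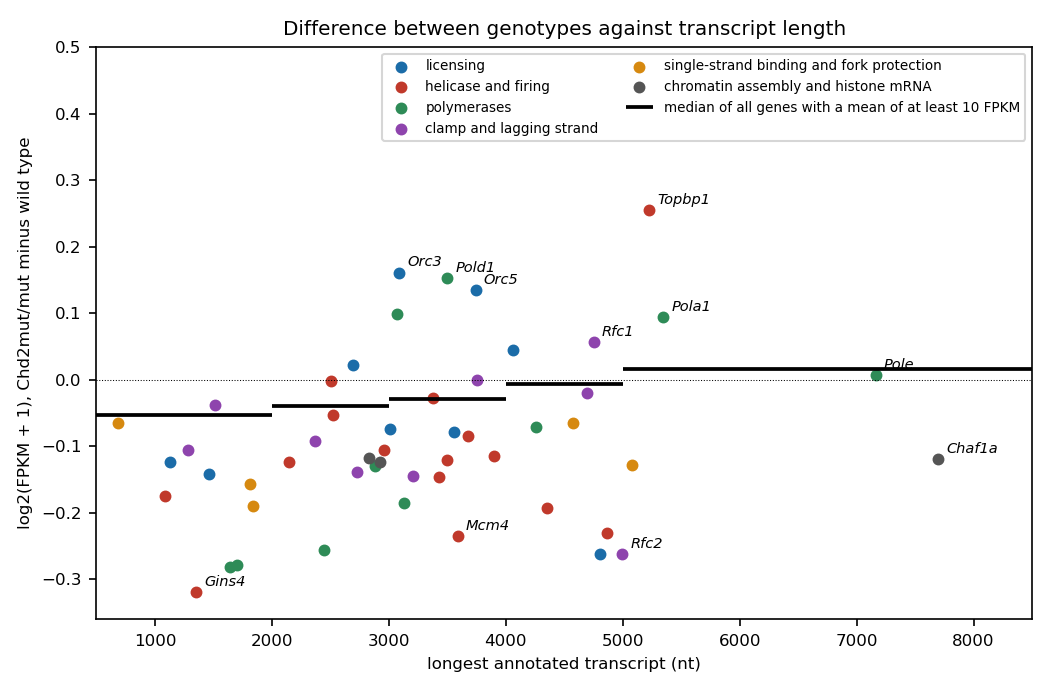
Difference of log2(FPKM + 1), Chd2mut/mut minus wild type, against the length of the longest annotated transcript in nt for the 51 genes, coloured by role, with black lines for the median of all genes averaging at least 10 FPKM in each length range. The black line runs from -0.05 under 2000 nt to 0.02 at 5000 nt and above, and the 11 replication genes under 2000 nt all lie below 0 as deposited.

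Some exons of these genes are shared with neighbours. In the GENCODE M21 basic set, 14 of the 51 genes share over 5% of their exon bases with another gene, most often on the opposite strand. The largest shares were 78.8% for Fen1 with the antisense transcript Gm10143, 70.7% for Gins2 with Gse1, 33.6% for Chaf1a with Ubxn6 and 24.0% for Orc2 with Nif3l1. Rfc2 shared 19.1% with Lat2 on the opposite strand. Pole2 shared 14.4% with Gm49384 on the same strand, which counting by strand would not separate. The sources used here do not give whether the counting used strand, and the values of these genes may hold reads of the neighbour.

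Other genes of DNA replication had a median difference nearer 0. A list of 84 symbols for regulators, nucleotide enzymes, repair-coupled fork factors and chromatin assembly had 80 in the table and 79 expressed. None of these 79 was called by the authors, against 0.718% of the genes whose q lies under 1. In the mutant 50 (63.3%) were lower, against 50.4% of expressed genes and 57.9% of those averaging at least 10 FPKM. The median difference was -0.04. These genes were also less abundant, with a median wild-type level of 32.6 FPKM against 60.0 FPKM for the 51 genes. By the 80% limit 3 of the 79 were lower and 1 was higher, against 5.9% and 6.94% of all expressed genes. The 3 lower were Dut, Ccne1 and Ccne2, of which Ccne2 was at only 2.12 FPKM in wild-type cells and 1.67 FPKM in mutant cells.

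The 4 largest differences downward included a nucleotide enzyme and a cyclin. Dut, the dUTPase that keeps uracil out of DNA, was at 94.0 FPKM in wild-type cells and 69.0 FPKM in mutant cells, 1.36-fold lower, with a q-value of 0.125 in the authors' deposited table. Ccne1, which encodes cyclin E1, was at 253 and 198 FPKM. Dscc1, a subunit of an alternative clamp loader, was at 12.3 and 10.3 FPKM, and Pole4, a small subunit of polymerase epsilon, at 61.3 and 52.0 FPKM.

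The 4 largest differences upward were in the following genes. Rb1, the repressor of E2F factors, was at 2.88 FPKM in wild-type cells and 3.63 FPKM in mutant cells. Cul4a, the scaffold of the ubiquitin ligase that works with Dtl, was at 14.0 and 16.7 FPKM. E2f6, a repressive E2F factor, was at 10.3 and 12.4 FPKM, and E2f1, an activating one, at 16.7 and 19.7 FPKM. Their relatives lay on both sides, with E2f3 at 8.22 and 9.48 FPKM, E2f8 at 15.4 and 13.1 FPKM and Cul4b at 77.2 and 71.9 FPKM.

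Markers that bear on the cell cycle, cell state and RNA quality are given beside the 50.4% of expressed genes, and the 57.9% of genes averaging at least 10 FPKM, that were lower. Of 16 mitotic genes 11 (68.8%) were lower, with a median of -0.09. Their summed level was 1396 FPKM in wild-type cells and 1281 FPKM in mutant cells. Their median wild-type level was 62.0 FPKM, and of all genes averaging 30 to 100 FPKM 63.7% were lower. Of 10 genes of G1 and S control 6 were lower, a share close to those of all genes, with a median of -0.03. Their summed levels were 1107 and 996 FPKM, and Ccne1, at 253 and 198 FPKM, had the largest drop in FPKM among them. Ccne1, Ccne2 and Cdk2 are also in the list of other replication genes, so these lists are not separate. The 9 markers of undifferentiated cells had 7 higher, with a median of 0.15 and summed levels of 6560 and 7185 FPKM. Among them Nanog was at 114 and 150 FPKM and Sox2 at 178 and 222 FPKM. Utf1 was lower, at 694 and 615 FPKM, and so was Tdgf1, at 216 and 212 FPKM. Pou5f1 was at 1032 and 1071 FPKM. Dppa5a, at 3844 and 4380 FPKM, made up most of the summed level. Of 6 nuclear noncoding RNAs, the 4 expressed ones were all higher in the mutant, with a median of 0.18, and the 6 summed to 49.8 and 56.5 FPKM. None of these genes was called, against 0.718% of the genes whose q lies under 1. The part of these markers in the values of the replication genes was not tested.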

How the data were processed

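RNA sequencing of 4 libraries, 2 wild type and 2 Chd2 mutant, was available as 1 table. The submitters' processing notes name bcl2fastq (2.17.1.14), TopHat2 (2.1.0), Cufflinks and build mm9; no Cufflinks version and no annotation is given in the sources used here. The authors deposited FPKM as 1 value per gene and genotype, so the planned limma fit was not run and depth is unknown. A log2 fold change and a q-value, called at 0.05, are also in the table, per the file headers, without the name of the test.

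From these values the difference of log2(FPKM + 1) was computed with Python 3.11.15, pandas 2.3.3 and numpy 2.4.6 for genes averaging at least 1 FPKM. This scale understates changes of low genes, and percentages and folds of single genes are plain ratios. Trend removal and quantile normalization were tested on simulated data. Every one of the 51 genes is named in its role group; of the other replication genes, the 4 largest differences in each direction are named. The members and lists were chosen with earlier results of these data known. Any spread behind the q-values may be technical.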

Additional observations from a re-analysis of the deposited data

How the results depend on the processing

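No paired analysis was possible because the table holds 1 value per genotype and none per lot; for the same reason no lot could be left out. A summary counts as moved here when it changed by over 1.5 times. The median difference of all 51 genes stayed below 0 in each setting run, between -0.12 and -0.0576, the latter after quantile normalization, and between 38 and 41 genes were lower, or 39 of 48 with a mean of at least 10 FPKM. Quantile normalization also moved the medians of licensing (-0.0307), helicase and firing (-0.0805), clamp and lagging strand (-0.0441), fork protection (-0.0576), chromatin assembly (-0.0648) and the other replication genes (-0.00504). With a trend on level, length and GC content removed, a setting chosen after seeing the data, the median of the 51 genes was -0.09 with 38 lower, and those of licensing (-0.0458) and clamp (-0.0309) moved. A limit of 1.1-fold in place of 80% of the other genotype gave 17 lower and 4 higher genes in place of 1 and 0, by construction. A q of at most 0.25 left 0 of the 51 genes called. Of 204 values of single genes under rescaling or another pseudocount, 30 moved and 4 changed sign: Mcm5 and Dbf4 after quantile normalization, and Rfc5 under both rescalings. The cause was not tested.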

Other observations

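Positions of the E2F strings differed between genes. Of 23 matches in the windows of the 17 replication genes, those in Cdt1, Pole2, Lig1, Pold1 and Pold3 begin after the annotated start, and those in Mcm5, Mcm6, Pola1, Orc1 and Orc3 begin before it. Mcm7 and Mcm3 are the abundant MCM genes with a match after the start.

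RNA levels of subunits of 1 complex differed widely. Across the 11 complexes or pairs formed by 39 of the genes, the span from lowest to highest RNA in wild type ran from 1.19-fold for CAF-1 to 12.5-fold for GINS. The sum of each complex in the mutant lay between 86.7% of wild type, for GINS, and 99.2%, for the Cdc7 and Dbf4 pair.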
